A study of Mus musculus with 4 samples.

Results

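The genes described here are the fibroblast growth factor (FGF) ligands, their receptors and the feedback targets of the pathway, a list of 34 genes matched to the array by the gene name in the scanner files. A probe carried the name of 33 of them (61 probes), and 22 genes passed the filter on dim probes, among 17157 genes tested in all. The embryos were C57BL/6J mice, either NRX +/+ (wild type) or NRX -/- (null for nucleoredoxin, whose gene is Nxn in the files; the array titles write KD), taken at embryonic day 9.5 (E9.5) and E11.5 without any treatment. At each stage, total RNA of null embryos was hybridised against total RNA of wild-type embryos on 2 arrays with the dyes swapped: the null RNA carried Cy5 in replicate 1 and Cy3 in replicate 2. The sources used here do not say how many embryos went into an RNA, how the allele was made or whether the arrays of a stage carried separate extracts. A called ratio therefore compares the hybridised RNAs, and p-values measure a spread that may be technical only. The fit used below takes out the dye difference that the stages share and borrows most of its spread across all genes. A ratio can thus be called although its 2 arrays disagree in size or sign. The SD of 2 arrays printed beside a ratio is not the error behind its p-value.

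FGF ligands are secreted signals that bind receptor tyrosine kinases together with heparan sulphate and act through Ras and the kinase ERK. In the embryo they act from the tailbud, the limb's apical ridge, the boundary of midbrain and hindbrain and the pharyngeal arches. The signal switches on its own brakes, the Sprouty and Spred proteins and the phosphatase Dusp6, and the ETS transcription factors Etv4 and Etv5, so the RNAs of these targets are widely read as a trace of FGF activity. The intracellular members Fgf11, Fgf12, Fgf13 and Fgf14 are not secreted and act on voltage-gated sodium channels.

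RefSeq promoters (GRCm38.p6) were matched for 25 of the 34 genes, with 33 start sites. The 250 bases before the start are shown for Fgfr4 and Fgf18, the members with lower RNA in the null at E9.5 by the largest ratios, and for Dusp6, Spry1 and Spred2, feedback inhibitors whose level was lower at E11.5 than at E9.5. Each runs 5′ to 3′ on the strand of its gene, and capitals mark the PEA3 motif, AGGAAG on either strand, named for the older name of Etv4. The windows lie at chr13:55152568-55152817 (plus strand, Fgfr4), chr11:33147401-33147650 (minus strand, Fgf18), chr10:99262981-99263230 (plus strand, Dusp6), chr3:37639697-37639946 (plus strand, Spry1) and chr11:19924192-19924441 (plus strand, Spred2), each just upstream of the annotated gene start.
Fgfr4: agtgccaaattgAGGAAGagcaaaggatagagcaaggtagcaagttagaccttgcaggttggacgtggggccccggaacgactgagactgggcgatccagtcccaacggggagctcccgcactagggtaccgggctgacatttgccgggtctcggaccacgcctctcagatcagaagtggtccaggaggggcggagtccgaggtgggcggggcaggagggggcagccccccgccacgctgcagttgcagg
Fgf18: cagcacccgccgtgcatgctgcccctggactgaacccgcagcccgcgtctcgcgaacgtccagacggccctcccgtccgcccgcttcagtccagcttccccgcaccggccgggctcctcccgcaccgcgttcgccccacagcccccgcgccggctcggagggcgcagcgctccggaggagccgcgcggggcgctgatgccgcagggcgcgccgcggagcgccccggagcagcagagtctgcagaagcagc
Dusp6: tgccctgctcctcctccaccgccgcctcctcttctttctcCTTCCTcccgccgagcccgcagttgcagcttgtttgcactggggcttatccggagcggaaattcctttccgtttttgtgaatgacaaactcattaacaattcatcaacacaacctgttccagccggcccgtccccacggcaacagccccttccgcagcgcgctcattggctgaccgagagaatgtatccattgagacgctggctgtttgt
Spry1: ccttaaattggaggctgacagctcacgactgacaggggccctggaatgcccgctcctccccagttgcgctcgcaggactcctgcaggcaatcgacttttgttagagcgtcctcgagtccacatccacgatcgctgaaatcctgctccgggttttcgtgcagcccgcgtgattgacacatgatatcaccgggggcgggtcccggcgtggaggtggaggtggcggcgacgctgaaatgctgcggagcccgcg
Spred2: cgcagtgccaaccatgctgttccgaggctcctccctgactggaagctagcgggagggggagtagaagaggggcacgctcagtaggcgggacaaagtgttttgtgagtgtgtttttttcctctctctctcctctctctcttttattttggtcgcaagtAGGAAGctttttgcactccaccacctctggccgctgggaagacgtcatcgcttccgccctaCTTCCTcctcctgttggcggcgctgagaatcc

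The Fgfr4 window held 1 match, 238 to 233 bases before the start, the Dusp6 window held 1 match on the opposite strand, 210 to 205 bases before the start, and the Spred2 window held a match on each strand, 93 to 88 and 32 to 27 bases before the start. The Fgf18 and Spry1 windows held none. Over all members, 6 of 33 windows held AGGAAG (Dusp6, Fgf12, Fgf3, Fgfr2, Fgfr4 and Spred2), against 29.48% of 32851 promoters of the same length. The longer ETS motif CCGGAAG, which does not contain AGGAAG, was in 0 of 33 windows and in 6.91% of all promoters, and the TCF/LEF motifs CTTTGAA and CTTTGAT were in 3 of 33 (Fgf23, Fgf3 and Fgf6) and in 7.48% of all promoters. All were searched on both strands, and a match is a description of letters only.

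The targeted gene, Nxn, had a log2 ratio of null over wild type of -0.99 ± 0.08 (SD, n = 2 arrays) at E9.5 and -1.33 ± 0.12 in E11.5 embryos, and no source used here places its probe inside or outside the deleted part. Between 48.2% and 70.3% of the probes were well above background in a channel, and no probe of the members was saturated. Markers of other tissues differed between the RNAs. At E9.5, 8 of 8 yolk sac endoderm markers were lower in the null, with a summed level of 13671 to 17621 in the null channels and 155262 to 157407 in the wild-type channels, 9 of 9 heart muscle markers were lower (32374 to 38486 against 117589 to 120204), and 7 of 9 neuronal markers were higher (41745 to 42079 against 32622 to 33131). Primitive red cell markers were lower in the null at both stages, 6 of 7 tested each time. None of the markers of these 4 lists was below background in any group. Of 5 tested placenta and decidua markers, 2 were higher and 2 lower in the null at E9.5. Prl8a2 was at least 5.6-fold higher, with the wild type not above background, and Prl3d1 read 1.06, while Phlda2 read -2.2 and Dcn -0.27. At E11.5, Xist was at least 57-fold higher in the null RNA, and the Y-linked Eif2s3y and Ddx3y were at least 8.68-fold and 5.79-fold lower, so at this stage sex and genotype of the embryos cannot be told apart. Neither genotype had either Y-linked probe well above background at E9.5. As these are bulk RNAs, fewer cells of a type and less RNA per cell cannot be told apart in any result below.

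Null and wild-type embryos were compared first at E9.5. Fgfr4, the FGF receptor best known from liver and endoderm, and Fgf18, a secreted ligand of the Fgf8 subfamily, had lower RNA in the null, and so did the feedback inhibitor Spry1. The ETS factors Etv4 and Etv5 had higher RNA in the null. These were 5 of 22 tested members, 2 higher and 3 lower, past an adjusted p of 0.05 (limma on the 4 arrays, Benjamini-Hochberg over all genes), beside 24.7% of all genes called at this stage, 9.88% higher and 14.8% lower. The share of members called was thus near that of all genes. The median log2 ratio was 0.05 over the 22 members and -0.00075 over all genes.

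The receptor Fgfr4 read -0.45 on replicate 1 and -0.61 on replicate 2 of E9.5, while those of E11.5 read -0.13 and -0.11. By channel, its log2 normalized intensity at E9.5 was 8.58 and 8.53 in the null and 9.03 and 9.14 in the wild type. Both null channels lay below both wild-type channels, and the null was lower on all 4 arrays. The E9.5 ratio was -0.53 ± 0.11 (SD, n = 2), 1.44-fold lower in the null, with limma's adjusted p = 2.15e-06. At E11.5 the ratio was -0.12 ± 0.01 (limma's adjusted p = 0.335), and the difference of the ratios between the stages was 0.41 ± 0.09 (SE, limma's adjusted p = 0.00299). The array holds 3 Fgfr4 probes above background, and they did not read alike: the others, both drawn from the transcript AF127140, read 0.04 and -0.19, and 0.04 and -0.22, on the E9.5 arrays (limma's adjusted p over probes 0.43 and 0.355). The lower level at E9.5 was thus seen with the brightest probe (NM_008011) and did not pass with either of the dimmer ones; with the mean of the 3 probes the E9.5 ratio was -0.23 (limma's adjusted p = 0.0134).

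The other receptors showed no called ratio. Fgfr3, the receptor that restrains growth of cartilage, read 0.18 and 0.14 at E9.5, higher in the null on both arrays, but its adjusted p in limma was 0.0705; a dimmer probe of the gene read 0.05 and 0.31 and passed in the fit over probes (limma's adjusted p = 0.0444). Fgfr1, the main receptor of mesoderm, read 0.06 and 0.10 at E9.5, and its 4 probes had means between 0.03 and 0.09. Fgfr2, the receptor of limb and lung epithelium, read -0.09 and 0.30 on the E9.5 arrays and -0.30 and 0.10 on the later ones. Its sign followed the dye and not the genotype.

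Among the secreted ligands, Fgf18 read -0.28 and -0.39 on the E9.5 arrays and -0.21 and -0.07 on those of E11.5. Its level at E9.5 was 10.02 and 10.03 in the null channels and 10.29 and 10.42 in the wild-type channels, so the groups did not overlap. The mean ratio at E9.5 was -0.33 ± 0.08 (SD, n = 2; 1.26-fold lower in the null, limma's adjusted p = 0.000688), and at E11.5 it was -0.14 ± 0.10 (limma's adjusted p = 0.226). The difference between the stages, 0.19, did not pass (limma's adjusted p = 0.201). Fgf8, the signal of the apical ridge, the tailbud and the midbrain-hindbrain boundary, read 0.12 and 0.19 at E9.5 with limma's adjusted p = 0.0896. Fgf10, the mesenchymal ligand that limb and lung buds need, read 0.02 and 0.09. Fgf9, a ligand that supports mesenchymal growth, read 0.02 and -0.15, and Fgf5, an early epiblast ligand, 0.23 and -0.12. Fgf15, the mouse counterpart of the hormone FGF19, read 0.08 and 0.12 (limma's adjusted p = 0.262).

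The brakes of the pathway had small ratios at E9.5. Spry1, an inhibitor of receptor signalling upstream of Ras and ERK, read -0.27 and -0.09, with channel levels of 11.16 and 11.20 in the null and 11.43 and 11.28 in the wild type. Both null channels were lower, though the highest null and lowest wild-type channels lay close together. Its mean was -0.18 ± 0.13 (SD, n = 2; limma's adjusted p = 0.0418). Spry2 read 0.22 and -0.38 and Spry4 read -0.39 and 0.05, opposite signs on the arrays of a stage. Dusp6, the phosphatase that removes the activating phosphates of ERK, read -0.05 and -0.09. Spred1 and Spred2, which hold back the step from Ras to Raf, lay between -0.06 and 0.05 with their brightest probes. Of the 6 inhibitors, 1 passed at E9.5 and none, 0 of 6, at the later stage.

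The ETS targets were both called higher at E9.5. Etv4 read 0.15 and 0.36, a mean of 0.25 ± 0.14 (SD, n = 2; limma's adjusted p = 0.00875). Etv5 read 0.0046 and 0.45, a mean of 0.23 ± 0.31 (limma's adjusted p = 0.0225), so its call came from replicate 2, and its second probe read 0.12 and -0.07. A fit that leaves out 1 array can no longer hold the dye term, so it changes both the arrays and the model, and the parts of these changes cannot be told apart. In each of the 4 such fits 0 members passed at E9.5, and Fgfr4 came nearest, with limma's adjusted p = 0.0863 when replicate 1 of E9.5 was left out, 0.315 for replicate 2 of E9.5 and 0.0624 without either E11.5 array. Etv5 read 0.45 without E9.5 replicate 1 and 0.0046 without replicate 2, and Spry1 -0.09 and -0.27. With all 4 arrays and no dye term Fgfr4 alone passed (adjusted p = 0.0453, limma), and with median centring in place of loess 0 members did.

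**Figure D1:**
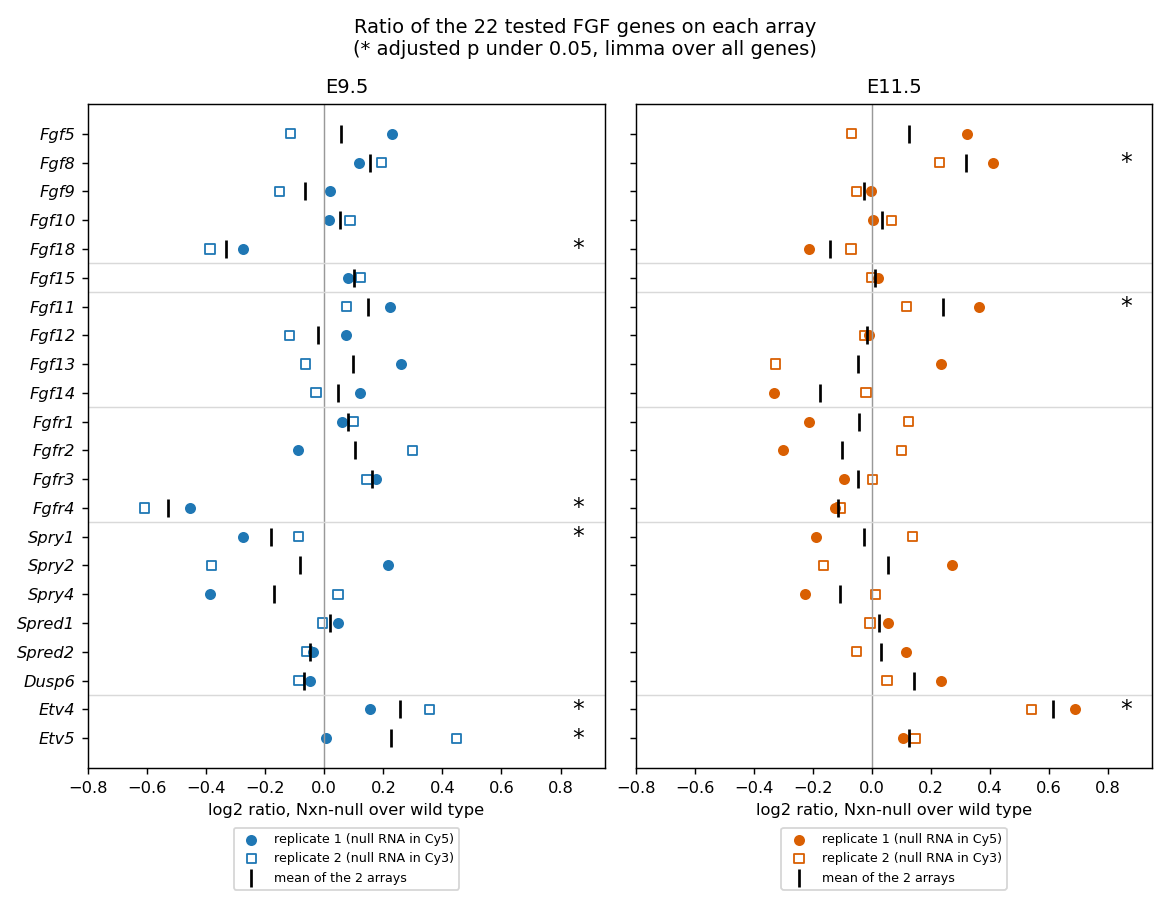
Log2 ratio of Nxn-null over wild type (horizontal axis) of the 22 tested genes, grouped by role from ligands at the top to ETS targets at the bottom, at E9.5 (left) and E11.5 (right). Points are single arrays, bars are the mean of 2 arrays and stars mark an adjusted p under 0.05: Fgfr4 stands lowest at E9.5 at -0.53 and Etv4 highest at E11.5 at 0.61.

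At E11.5 the called members were all higher in the null: Etv4, Fgf8 and Fgf11. These were 3 of 22, beside 9.31% of all genes called at this stage, 3.67% higher and 5.64% lower, and 0 members were lower. The member median was -0.004 and that of all genes 0.0071. The widest ratio, that of Etv4, was 1.53-fold, under the 2-fold change at both stages that the study set for its own selection of genes.

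Etv4 read 0.69 and 0.54 at E11.5. Its log2 normalized intensity was 9.98 and 9.77 in the null channels and 9.29 and 9.23 in the wild-type channels, with no overlap. The mean ratio was 0.61 ± 0.10 (SD, n = 2; limma's adjusted p = 1.91e-06). Etv4 was higher in the null on all 4 arrays, and its ratio was wider at E11.5 than at E9.5 by 0.36 ± 0.10 (SE, limma's adjusted p = 0.0151). Etv5, its close relative, read 0.10 and 0.15 at E11.5 and did not pass (limma's adjusted p = 0.345). Of the members whose ratio differed between stages, Fgfr4 and Etv4 were 2 of 22, both with the larger value at E11.5, beside 13.6% of all genes, 8.33% in that direction and 5.22% in the other. With all 4 arrays and no dye term 0 members passed for this difference, and 0 in each fit that left out an array and with it the dye term.

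Fgf8 read 0.41 and 0.23 at E11.5, with levels of 9.48 and 9.24 in the null and 9.07 and 9.01 in the wild type. The channels of the genotypes did not overlap, and the mean ratio was 0.32 ± 0.13 (SD, n = 2; 1.25-fold, limma's adjusted p = 0.0023). A second, dimmer Fgf8 probe was well above background in 3 of 8 channels and did not pass the filter. Region markers stood as follows beside it: at E11.5, 1 of 12 tested tailbud markers was higher (Wnt3a, 0.38) and 1 of 13 tested limb markers (Msx2, 0.23), with summed levels of 7740 to 7781 in the null and 7278 to 7322 in the wild type for the tailbud list and 35938 to 37938 against 33954 to 36820 for the limb list. At E9.5, where Fgf8 did not pass, 3 of 12 tailbud markers were lower in the null (Cdx2 -2.27, Tbx6 -2.11 and T -0.77). In the tailbud list 1 marker was higher (Wnt3a, 0.55). Of 13 limb markers, 4 were lower (Hoxd13 -1.37, Pitx1 -1.14, Hoxd11 -0.34 and Tbx4 at least 1.64-fold). The limb list also had 3 higher (Msx2 0.47, Dlx5 0.36 and Prrx1 0.25). Among all genes, 14.8% were called lower and 9.88% higher in these younger embryos. The summed levels at E9.5 were 8182 to 8775 in the null and 9160 to 10227 in the wild type for the tailbud list, and 26757 to 28616 against 29116 to 30654 for the limb list. Of 8 tested midbrain-hindbrain and forebrain markers, 0 passed at E11.5, with sums of 8500 to 8672 in the null and 8922 to 9660 in the wild type. In that list 3 were higher and 0 lower at E9.5 (9736 to 9967 against 8265 to 9591). The part of these tissues in the Fgf8 and Etv4 ratios was not tested.

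Fgf11 read 0.36 and 0.12 at E11.5, levels of 8.94 and 8.75 in the null and 8.58 and 8.63 in the wild type, a mean of 0.24 ± 0.17 (SD, n = 2; limma's adjusted p = 0.016). Its second probe read 0.03 and -0.04, with a mean of -0.0036, and did not pass. The other intracellular factors did not pass at either stage: at E11.5 Fgf12 read -0.0084 and -0.03, Fgf13 0.23 and -0.33, and Fgf14 -0.33 and -0.02. Fgf18, Fgf9, Fgf5 and Fgf10 lay between -0.14 and 0.13 in the mean. With an array and the dye term left out, only Etv4 passed at E11.5 without either E9.5 array (adjusted p = 0.0421, limma), and no member without E11.5 replicate 1 or replicate 2, the lowest adjusted p being 1 and 0.359. Etv4 alone passed with median centring, and 0 members passed with the processed signals of Feature Extraction, with the deposited value table or with no dye term.

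**Figure D2:**
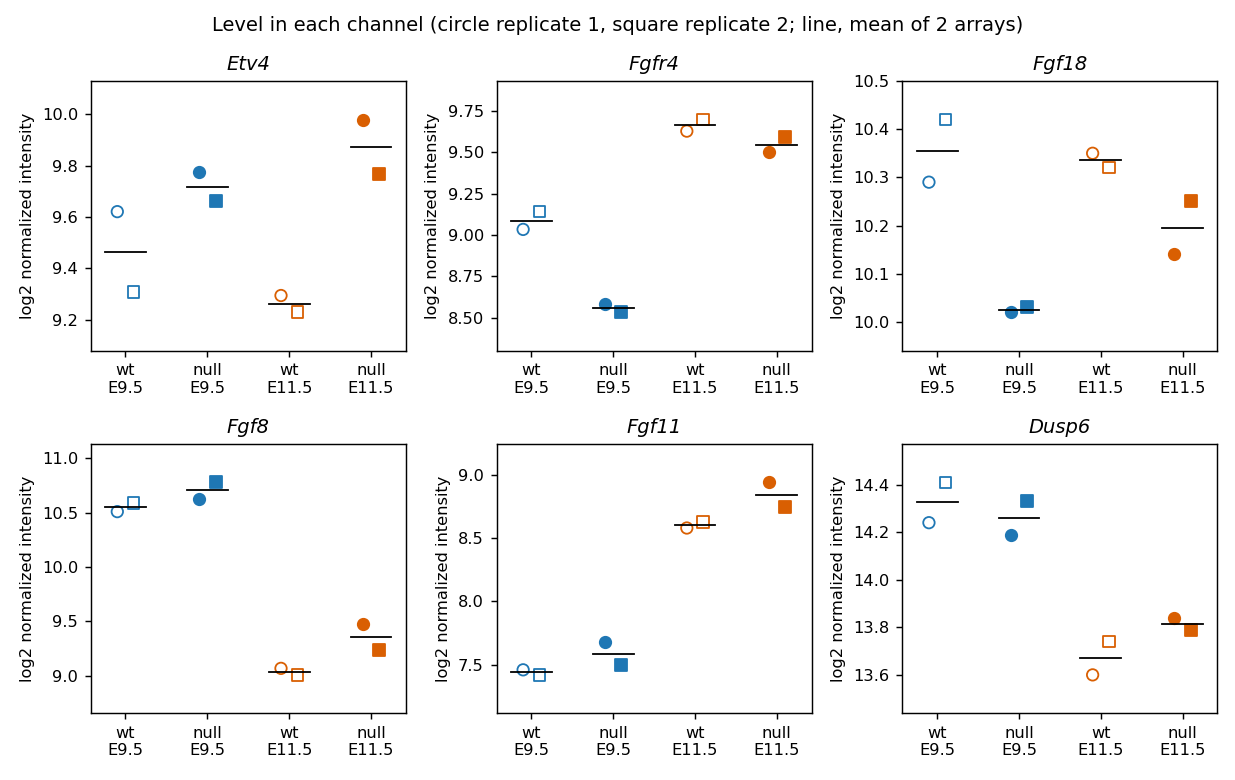
Log2 normalized intensity (vertical axis, own scale for each gene) of 6 members in the 8 channels, wild type open and null filled, E9.5 in blue and E11.5 in orange, with circles for replicate 1, squares for replicate 2 and lines for the mean of 2 arrays. The null channels of Fgfr4 and Fgf18 lie below the wild-type channels at E9.5, those of Etv4 and Fgf8 lie above them at E11.5, and Fgf8 is 2.69-fold lower at E11.5 than at E9.5.

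The ERK phosphatase Dusp6 read -0.05 and -0.09 on the E9.5 arrays and 0.24 and 0.05 on those of E11.5. The signs were thus opposite at the stages on every array, but the difference of 0.21 ± 0.09 (SE) did not pass (limma's adjusted p = 0.137). Spred2 differed by probe: the dimmer one (NM_033523) read -0.13 and -0.46 in E9.5 embryos and 1.02 and 0.09 in E11.5 embryos, past the threshold at both stages in the fit over probes (limma's adjusted p = 0.0105 and 6.48e-05), while the brighter one was near 0. The E11.5 value of the dimmer probe came from replicate 1. Spry2 and Spry4 again had opposite signs on the 2 arrays with their brightest probes. A dimmer Spry2 probe read 0.42 and 0.01 at E11.5 and did not pass (limma's adjusted p over probes 0.052). Of 11 members with more than 1 probe above background, probes differed in sign in 1 at E9.5 (Fgf14) and in 7 at E11.5.

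**Figure D3:**
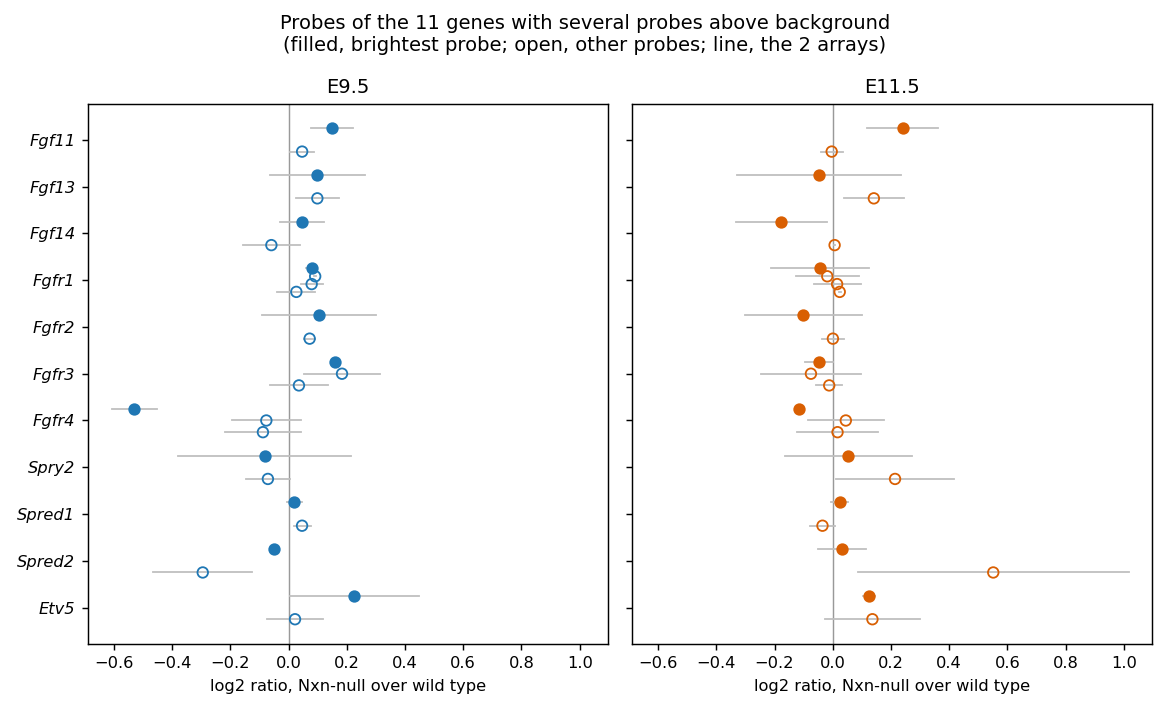
Mean log2 ratio of null over wild type (horizontal axis) for each probe above background of the 11 members that have several, the brightest filled and the others open, with a line joining the 2 arrays. The brightest Fgfr4 probe stands at -0.53 at E9.5 while its other probes stand at -0.08 and -0.09, and the open Spred2 probe reaches 0.55 at E11.5 with its arrays far apart.

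Over both stages, each stage counted as 1 replicate, limma called 0 of 22 members and 0% of all genes (0 of 17157), with a lowest adjusted p among the members of 0.611 (Etv4, shared ratio 0.43). At an unadjusted p under 0.05 there were 4 members and 1239 genes, and with the 4 arrays taken as separate measurements 0 members and 45 genes. The null was higher on all 4 arrays in 5 members (Etv4, Etv5, Fgf8, Fgf10 and Fgf11), beside 7.59% of all genes, and lower on all 4 in Fgf18 and Fgfr4, 2 members, beside 10.5% of all genes. For 6 members the sign of the brightest probe followed the dye at both stages (Fgf5, Fgf13, Spred1 and Spry2 higher in Cy5, Fgfr2 and Spry4 lower). These were 27.3% of members, beside 28.8% of all genes.

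The level of the members was then compared between the stages. The comparison set E11.5 against E9.5 in single channels, with the genotypes as 2 replicates; what the channels of an array share is left out of its error, which makes the p-values too small. Of 22 members, 14 passed, 6 higher and 8 lower at E11.5, beside 42.3% of all genes, 20% higher and 22.3% lower. Of the 6 feedback inhibitors, 4 were called lower at E11.5 and 0 higher, and the median change of the 6 was -0.42. Of the 4 intracellular factors, 3 were called higher and 0 lower, with a median of 0.40. Fgf14 changed by 0.15 and did not pass. Fgf12 passed the filter on dim probes only through the null channels of E11.5, and Spry4 only through the wild-type channels of E9.5. Each was thus kept through the stage at which it read higher, so neither call is support for a change of its group. The median over all genes was -0.04, and neither group was tested as a group. Null and wild type moved in the same direction in 19 of 22 members, the exceptions being Etv4, Fgf18 and Fgfr3. The genotypes are the 2 channels of the same arrays, so a shared direction was partly built in and is no separate support for the changes. Its share over all genes was not computed.

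Fgf8 fell the most among the members. Its levels of 10.51 and 10.59 in wild type and 10.63 and 10.78 in null at E9.5 stood against 9.07 and 9.01 in wild type and 9.48 and 9.24 in null at E11.5, with no overlap between the stages. The change was -1.43 ± 0.07 (SE, limma's adjusted p = 0.00608), -1.51 in wild type and -1.35 in null. Markers of its regions stood beside it: of 8 tested midbrain-hindbrain and forebrain markers 4 were lower at E11.5 and 0 higher (En2, -0.83; Otx2, -0.82; Pax5, -0.66; Wnt1, -0.27), of 12 tailbud markers 3 were lower and 1 higher, and of 13 limb markers 1 was lower (Sp8 of the apical ridge, -1.11) and 4 higher. Their part in the change of Fgf8 was not tested. Fgf10 fell by 0.38 and Fgf15 by 0.33 on the log2 scale (limma's adjusted p = 0.0161 and 0.0248), while Fgf9 rose by 0.43 (limma's adjusted p = 0.0132). With median scaling the change of Fgf10 was -0.14 and did not pass (limma's adjusted p = 0.109). Fgf18 and Fgf5 did not pass, with changes of 0.08 and 0.17.

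Among the brakes, Dusp6 had levels of 14.24 and 14.41 in wild type and 14.19 and 14.33 in null at E9.5, and of 13.60 and 13.74 in wild type and 13.84 and 13.79 in null at E11.5. All 4 channels of the later stage lay below those of the earlier one, and the change was -0.55 ± 0.08 (SE, limma's adjusted p = 0.0143), or -0.95 with median scaling between arrays. Spry1 changed by -0.45 ± 0.07 and Spred2 by -0.44 ± 0.06 (SE, limma's adjusted p = 0.017 and 0.0139), and with the mean of its probes Spred2 no longer passed (-0.41, limma's adjusted p = 0.0775). Spry4 was called lower too (-0.40, limma's adjusted p = 0.0158), but neither genotype had its probe well above background at E11.5: the level was at least 1.35-fold lower in wild type and 1.28-fold lower in null, and with median scaling between arrays its change was 0.02. Spry2 (-0.16) and Spred1 (-0.17) did not pass, nor did Etv4 (-0.02), which went -0.20 in wild type and 0.16 in null. Etv5 fell by 0.32 (limma's adjusted p = 0.0273). Its call was lost without E9.5 replicate 1 and without E11.5 replicate 2 (adjusted p = 0.115 and 0.0508 in limma), and with median scaling its change was -0.03.

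Fgf11 rose the most, from 7.46 and 7.42 in wild type and 7.68 and 7.49 in null at E9.5 to 8.58 and 8.63 in wild type and 8.94 and 8.75 in null at E11.5. The change was 1.21 ± 0.06 (SE; 2.32-fold, limma's adjusted p = 0.00608). Over the 8 alternatives run, 1 of which took the mean of its probes, it lay between 0.57 and 1.44 and passed in each. Fgf11 had 2 probes above background, and the 2.32-fold change was read from the brighter one alone. The stage change of the second probe by itself is not given here. Fgf13 and Fgf12 rose by 0.41 and 0.39 (limma's adjusted p = 0.0195 and 0.0157), and with median scaling Fgf12 rose by 0.71. The Fgf12 probe was near the floor, well above background in 5 of 8 channels. Summed neuronal markers stood beside them at 32622 to 42079 in the 4 channels of E9.5 and 76955 to 79915 in those of E11.5; their part in the rise of the intracellular factors was not tested.

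The receptor Fgfr4 rose from 9.03 and 9.14 to 9.63 and 9.70 in wild type, and from 8.58 and 8.53 to 9.503 and 9.59 in null. All channels of E11.5 lay above all channels of E9.5, and the change was 0.78 ± 0.12 (SE, limma's adjusted p = 0.016), 0.58 in wild type and 0.99 in null. These levels and the change of 0.78 were read from the brightest Fgfr4 probe alone. With the mean of its probes the change was 0.32 (limma's adjusted p = 0.0426). The stage changes of the dimmer probes by themselves are not given here, so a rise with each probe is not shown. Of 6 tested myotome markers, 2 were higher at E11.5 (Myog, 1.92, and Myod1, 1.11) and 2 lower (Myf6, -0.72, and Pax3, -0.39). Their part in the rise of Fgfr4 was not tested. Fgfr1 rose by 0.39 (limma's adjusted p = 0.0197). Fgfr2 (-0.26) and Fgfr3 (0.09) did not pass. Without E9.5 replicate 1 the calls of Etv5, Fgf15 and Spry4 were lost (limma's adjusted p = 0.115, 0.0819 and 0.0587), without E9.5 replicate 2 that of Fgf13 (0.0512), without E11.5 replicate 1 that of Fgf13 (0.0716), and without E11.5 replicate 2 those of Etv5, Fgf12 and Fgf15 (0.0508, 0.0533 and 0.0576); the count was then 11 to 14.

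**Figure D4:**
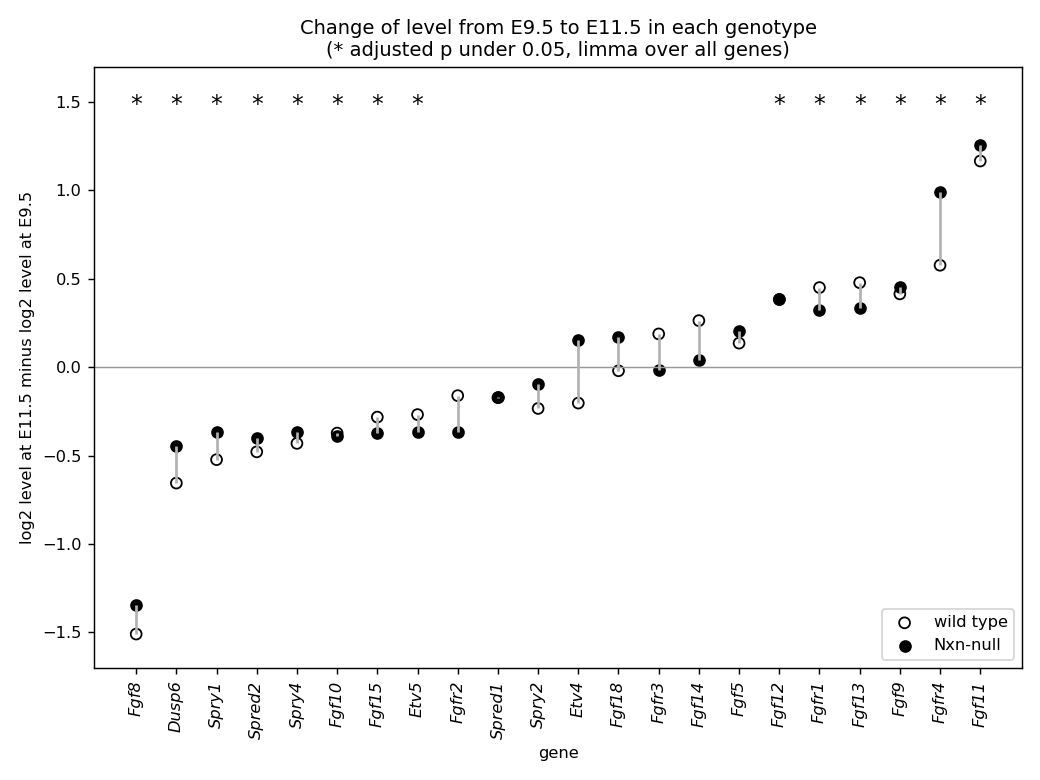
Change of the log2 level from E9.5 to E11.5 (vertical axis) of the 22 members in wild type (open) and null (filled), ordered by the mean change, with stars for an adjusted p under 0.05. Fgf8 lies lowest at -1.51 in wild type and -1.35 in null, Fgf11 highest at 1.17 and 1.26, and Etv4, Fgf18 and Fgfr3 have the genotypes on opposite sides of 0.

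The other genes of the pathway were taken from a list of 57, of which 51 were tested. At E9.5, 7 were higher and 6 lower in the null, and at E11.5, 4 were higher and 1 lower. These shares are near the 24.7% and 9.31% of all genes called at the stages. Their median ratios were 0.02 and -0.02. The widest ratio belonged to Klb, beta-Klotho, the co-receptor through which Fgf15 and Fgf21 use Fgfr4 and Fgfr1. Klb read -0.90 and -1.04 at E9.5, levels averaging 7.59 in the null and 8.56 in the wild type, and 0.21 and 0.20 at E11.5. Its ratio was -0.97 ± 0.10 (SD, n = 2; 1.96-fold lower in the null, limma's adjusted p = 2.64e-10) in the younger embryos and 0.21 in the older ones (limma's adjusted p = 0.0439), and the stages differed by 1.17 (limma's adjusted p = 4.55e-09). The E9.5 call held in all 13 alternatives run, including those that left out an array and the dye term, with an adjusted p in limma of at most 0.0199, and the E11.5 call in 0 of 13. With the Feature Extraction signals or the value table the E9.5 ratio was -1.71 and the difference between stages 2.37. Without E11.5 replicate 1, and with it the dye term, that difference did not pass (limma's adjusted p = 0.0575). The Klb probe did not pass the filter that asks for both channels above background. At neither stage were all channels of both genotypes well above background, and the genotype that kept the probe is not given here. If it was kept through the wild type at E9.5 alone, the lower reading in the null there is no separate support. Klb and Fgfr4 were thus lower in the same E9.5 RNA in which yolk sac endoderm markers such as Cubn (-4.25) and Afp (-3.37) were lower. Of 6 tested myotome markers, 1 was higher (Myod1, 0.27) and 1 lower (Met, -0.25) in that RNA. The part of these tissues in both ratios was not tested.

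The remaining co-receptors and binding proteins were Flrt2, a membrane protein that binds FGF receptors, which was higher at E9.5 (0.31 and 0.18, mean 0.24, limma's adjusted p = 0.00686; with the mean of its probes 0.16, adjusted p = 0.07), and Fgfbp1, a carrier of secreted FGFs, which read -0.05 and -0.57 at E9.5 (limma's adjusted p = 0.00203) and which neither genotype had well above background at E11.5. The E9.5 sign of Fgfbp1 turned with the Feature Extraction signals (0.86). Of 11 tested heparan sulphate genes, 3 were higher at E9.5 (Sulf1, which trims sulphate groups, 0.22; Sdc1, a syndecan, 0.21; and Gpc4, a glypican, 0.17) and 1 at E11.5 (Gpc3, a glypican, 0.68 and 0.13, mean 0.41). Gpc4 read -0.04 without E9.5 replicate 1.

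Of 21 adaptors and kinases, 5 passed at E9.5, again near the share of all genes, and 0 at E11.5. Hras, a Ras switch, read 0.25 and the receptor adaptor Frs3 0.20, whereas the kinase Araf read -0.23 and the Ras inhibitor Nf1 -0.29. The sign of Nf1 differed between the arrays (0.07 and -0.65) and turned to 0.07 without E9.5 replicate 2 and to 0.32 with the Feature Extraction signals. Of the 13 tested other inhibitors and immediate targets, Ier2, an immediate early gene of growth factor signalling, was lower at both stages: its E9.5 arrays read -0.31 and -0.09 and its E11.5 arrays -0.52 and -0.33 (limma's adjusted p = 0.0252 and 6.48e-05). Dusp9, an ERK phosphatase, was higher at E11.5 at 0.30 and 0.27 (limma's adjusted p = 0.00433), and Myc lower at E9.5 at -0.45 and 0.08 (limma's adjusted p = 0.033), with a sign that turned without E9.5 replicate 1. With the mean of its probes Ier2 was -0.17 at E11.5 and did not pass (limma's adjusted p = 0.109). Its calls were lost at both stages with no dye term (0.518 and 0.366), and with an array and the dye term left out (0.204 or more).

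The 12 members without a test were Fgf4, for which no probe carries the name, and 11 secreted ligands. For Fgf1, Fgf2, Fgf3, Fgf6, Fgf16, Fgf20 and Fgf22, 7 genes, no probe was well above background in any of the 8 channels. Probes of Fgf7 and Fgf21 were above it in at most 1 channel, of Fgf17 in 3 and of Fgf23 in 4. All 4 receptors, all 6 inhibitors, both ETS targets and all 4 intracellular factors were measured, and of the secreted ligands 5 of 15 paracrine and 1 of 3 endocrine ones.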

How the data were processed

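The scanner files hold red and green intensity values of 4 Agilent whole mouse genome arrays, deposited without normalization by the authors beyond Agilent Feature Extraction (9.1.3.1 per the file headers, 9.5.3.1 per the submitters' processing notes). The deposited value table holds log10 ratios; against the scanner files its columns equalled log10 of the processed null over wild-type signal in 99.995% to 100% of single-spot probes (tolerance 1e-04), with column medians of -0.0137, 0.0408, -0.0349 and 0.021, so it was not centred. RNA was labelled as cRNA with Cy3 or Cy5, per the labels' protocols.

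Here the mean signals were background-corrected (normexp, offset 50) and loess-normalized within arrays with limma 3.58.1 in R 4.3.3, control spots given no weight and outlier spots left out. Ratios were turned to log2 null over wild type. A probe was kept if the null or the wild-type channel was well above background on each array of at least 1 stage. It was dropped if any of its spots was marked as an outlier on any array, which left 24985 of 41174 probes. The brightest kept probe stood for a gene. Symbols were updated from RefSeq tables by accession for 22951 probes and by an older symbol for 3108; 6659 already had the current symbol and 8456 kept the file's name. Members were matched by the file's gene name.

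Ratios at each stage and their difference were fitted on all 4 arrays with stage and dye (residual df 1, prior df 18.5). The ratio over both stages was fitted on the 2 stage averages, and levels between stages on Aquantile-normalized channels averaged by genotype (prior df 2.85 for both). Tests used lmFit and eBayes with Benjamini-Hochberg adjustment over 17157 genes, threshold 0.05. The fits were run on simulated data with known changes. For the ratios these data had the fitted spread and the same dye effect at both stages. For the levels they had no error shared by the channels of an array. They could thus not show where the real data break these assumptions. All 4 arrays lay on 1 slide, so slide is no batch. The number of arrays limits the precision.

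All 34 members are accounted for; members called in a comparison are given with their values (of the stage changes, the 10 widest at least), and of other pathway genes the called ones, at least the 3 widest of each list and stage; the values of 1 listed gene are not reported here. Members, lists and rules were chosen with earlier results of these data known. Alternatives were other background, normalization, filter, probe, dye and moderation settings and leaving out each array, which for the ratios also drops the dye term.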

Additional observations from a re-analysis of the deposited data

Results flagged for a closer look

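The ratio of null over wild type differed between the stages in 8 named genes by limma's test of that difference (Benjamini-Hochberg over all genes). These were 2 of 22 members and 6 of 51 other pathway genes, beside 13.6% of all genes. Among the members, Fgfr4 changed by 0.415 from E9.5 to E11.5 (limma's adjusted p = 0.00299) and Etv4 by 0.359 (limma's adjusted p = 0.0151). Among the other pathway genes, Klb changed by 1.17 (limma's adjusted p = 4.55e-09), Gpc3 by 0.434 (0.00154), Nf1 by 0.434 (0.00161), Flrt2 by -0.41 (0.00299) and Sulf1 by -0.281 (0.038). Fgfbp1 changed by 0.771 (limma's adjusted p = 7.25e-06), but neither genotype had its probe well above background at E11.5. The sign turned with the Feature Extraction signals for Fgfbp1 and for Nf1 (-0.517). The E9.5 ratio of Fgfr4 passed with its brightest probe and not with either of its dimmer ones. Dusp6 was lower in the null on both E9.5 arrays and higher on both E11.5 arrays, a difference of 0.21 that did not pass the test (limma's adjusted p = 0.137).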

How the results depend on the processing

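With 2 arrays a stage and 1 residual degree of freedom, the ratio calls rest on a spread borrowed across genes. Of 70 values of the members called at E9.5 under alternatives, 28 stayed past the threshold and 42 did not, and at E11.5 18 of 42 did; none of these changed direction. Of 112 values of stage changes, 100 stayed past it, 11 did not and 1 reversed. The count of members over both stages was 0 in every alternative that bears on it. The median ratio of all genes at a stage was at most 0.0977 under any normalization.

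At E9.5 (5 members in the main analysis), the count was 0 with median centring, 3 with the Feature Extraction log ratio, the deposited value table or no filter on dim probes, 1 with no dye term, and 0 to 0 with an array left out. The fits of ratios that leave out an array also lack the dye term, which 3 arrays cannot hold, so their counts stand for both changes. At E11.5 (3 members), it was 1 with median centring, 0 with the Feature Extraction log ratio, the deposited value table or no dye term, and 0 to 1 with an array left out. For the difference between stages (2 members), it was 1 with an offset of 10, no filter, or trend and robust moderation, 0 with median centring, the Feature Extraction log ratio, the deposited value table or no dye term, and 0 to 0 with an array left out. Over all genes, the share called at E9.5 was 3.96% with median centring, 8.17% with the Feature Extraction log ratio or the value table, 12.7% with no filter and 2.68% with no dye term.

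The member median at E9.5 was 0.14 with the Feature Extraction log ratio and the value table, and -0.0166 to 0.0533 with an array left out. That at E11.5, -0.004 in the main analysis, was 0.0778 with median centring, 0.0371 with the Feature Extraction log ratio and the value table, 0.0366 with no filter, 0.0239 with both channels above background, and -0.004 to 0.0119 with an array left out, so its sign is not settled. The count of members changed between stages was 11 to 16 under all alternatives.

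Values that reversed were these. The Spry4 stage change was 0.015 with median scaling. With the Feature Extraction log ratio, as with the value table, Fgfbp1 read 0.863 at E9.5, -0.22 at E11.5 and -1.08 for the difference, and Nf1 0.318 at E9.5 and -0.517 for the difference. Without E9.5 replicate 1, Gpc4 read -0.0359 and Myc 0.0793 at E9.5, against 0.384 and -0.454 without replicate 2, and Nf1 read 0.0684 without E9.5 replicate 2 and -0.649 without replicate 1. The cause was not tested. No paired analysis was possible because each array already pairs a null with a wild-type RNA and the replicate number is the dye orientation, which the main fit holds as a term.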
